A study of Mus musculus with 6 samples.

Results

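Srf and the genes of its myocardin family coactivators, Myocd, Mrtfa and Mrtfb, were followed by name through 6 bulk RNA libraries of sorted intestinal fibroblasts. They are 4 of the 15238 genes in the deposited gene table, which lists Mrtfa and Mrtfb under their older names Mkl1 and Mkl2. The libraries came from Balb/c mouse pups at postnatal day 9, and the study asked how a lack of eosinophils bears on smooth muscle differentiation in the intestinal villi. The 3 wild-type libraries are replicates 1, 3 and 4. The 3 DdblGata1 libraries are replicates 4, 9 and 10, and in DdblGata1 mice a deleted element of the Gata1 promoter leaves the animals without eosinophils. Epithelium was removed with EDTA, the rest was digested with Liberase, and podoplanin-positive cells were sorted after exclusion of leukocytes by CD45, of epithelium by EpCAM and of endothelium by CD31. Whether the libraries stem from separate pups is not in the labels, so p-values here measure the spread between these libraries. Values of single libraries are given in the order of replicates 1, 3 and 4 for wild-type and 4, 9 and 10 for DdblGata1.

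SRF is a DNA-binding protein that occupies CArG boxes, short sites with an A and T core between C and G pairs, in the promoters of contractile, cytoskeletal and immediate early genes. It works with competing partners: the myocardin family drives muscle and cytoskeletal genes, while the ternary complex factors Elk1, Elk3 and Elk4 link SRF to growth factor signalling. Myocardin is a nuclear coactivator typical of smooth and cardiac muscle, whereas Mrtfa and Mrtfb proteins are held in the cytoplasm by monomeric actin and enter the nucleus when actin polymerises.

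The promoter of Srf itself is printed because its letters include CArG boxes, the kind of site that the SRF protein reads. The window runs up to the GENCODE start of the coding transcript, chr17:46556176-46556412 on the minus strand of GRCm38.p6, taken from RefSeq, with CArG boxes in capitals.
Srf promoter: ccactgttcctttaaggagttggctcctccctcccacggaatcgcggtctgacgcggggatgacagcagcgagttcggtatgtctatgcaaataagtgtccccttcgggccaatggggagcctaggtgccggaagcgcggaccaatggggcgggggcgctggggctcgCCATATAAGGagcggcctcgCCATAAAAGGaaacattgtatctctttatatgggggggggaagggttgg
The 2 boxes end 59 and 39 bases before that start. The search took 10 letters, 2 C, then 6 letters each A or T, then 2 G, which reads alike on both strands. Of 32851 RefSeq promoter windows of 300 bases, 535 (1.63%) held such a box, and 6 windows (0.0183%) held 2 or more, those of Ceacam11, Dusp5, Gm33934, Gm39572 (both of its windows) and Srf. RefSeq windows were matched for 3 of the 4 members, Srf, Mrtfa and Mrtfb, and a window of Myocd was not analysed here. The 2 windows of Mrtfa and the 3 of Mrtfb held none. A match is a description of the letters and not a shown binding site.

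The libraries held 28110454 to 31210800 counts over the gene table. Gata1 transcripts were estimated at 1 count in wild-type replicate 1 and at 0 elsewhere, so these data do not check the genotype. All 8 fibroblast markers were detected in every library. Their levels differed widely: Col3a1 stood at 24077 to 35627 TPM (a transcript level corrected for length and library size) in wild-type and 33208 to 36011 in DdblGata1 libraries, and the sort marker Pdpn at 26.2 to 45.8 and 46.7 to 61.1 TPM. Of the 8 fibroblast markers, 6 were higher by value in DdblGata1 libraries. The 2 lower ones were Col1a1 (log2 fold change -0.44) and Col1a2 (-0.28). None of the 8 had an unadjusted p under 0.05 in the edgeR test described below. The 7 leukocyte markers summed to 18.1 to 44.8 TPM in wild-type and 19.1 to 24.9 in DdblGata1 libraries. Ptprc, the leukocyte marker CD45, lay between 0.363 and 1.96 TPM in all 6. Lyz2, a lysozyme of myeloid cells, stood at 15.8 to 30.3 and 10.7 to 15.3 TPM. It was without overlap, as with 7.34% of all genes in the lower direction. Cd3e, another of the 7, went the other way (log2 fold change 2.13). It stood at 0.475 to 1.60 TPM in wild-type and 0.203 to 7.21 in DdblGata1 libraries, with overlap. Epcam ranged from 13.5 to 101 TPM, and the 6 epithelial markers summed to 1168 TPM in wild-type replicate 1 against 190 to 421 in the other 5.

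Srf was the member whose level separated the genotypes. Srf (ENSMUSG00000015605, GRCm38 chr17:46548329-46556175, minus strand) had 85.4, 67.2 and 66.8 CPM in the wild-type libraries, where CPM are counts scaled to library size by the TMM method. The DdblGata1 libraries had 48.1, 43.6 and 35.0 CPM. All 3 DdblGata1 libraries lay below all 3 wild-type libraries, as did those of 7.34% of all genes. The means were 73.1 ± 10.6 and 42.2 ± 6.69 CPM (SD, n = 3 each), and the fitted log2 fold change of DdblGata1 over wild-type was -0.79 ± 0.18 (SE). The gene was measured on 1083 to 2800 deposited counts per library. In bulk libraries, fewer cells that express a gene and less RNA per cell cannot be told apart.

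By edgeR's quasi-likelihood test with Benjamini-Hochberg adjustment, Srf had an unadjusted p of 0.00201, the 66th smallest of all genes, and an adjusted p of 0.384. That test called 0 of 15238 genes (0%). At an unadjusted p under 0.05, 645 genes were lower (4.23%) and 919 higher (6.03%). DESeq2 gave Srf a log2 fold change of -0.80 with an adjusted p of 0.0143 and called it lower, among 216 of 14334 genes (1.51%) called in either direction and 73 (0.509%) called lower. The DESeq2 call held without wild-type replicate 3 (adjusted p 0.0403) and without DdblGata1 replicate 4 (0.0015). It was lost without wild-type replicate 1 (0.106) or 4 (0.0540) and without DdblGata1 replicate 9 (0.0983) or 10 (0.147). The log2 fold change was negative in all 24 alternative analyses, from -0.90 to -0.50.

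Pericyte markers stood lower along with Srf: the 6 markers, 5 of them lower by value, summed to 821 to 1027 TPM in wild-type and 645 to 701 in DdblGata1 libraries, and all 6 were above 0 in every library. Mature smooth muscle markers summed to 4538 to 6791 TPM in wild-type and 3220 to 4878 in DdblGata1 libraries, ranges that overlap, with all 7 lower by value and detected in every library. The 5 markers of interstitial cells of Cajal, which pace gut contractions, summed to 327 to 454 and 190 to 364 TPM, also with overlap, and each of the 5 had a negative log2 fold change (median -0.36). Among them Cacna1h, a calcium channel subunit, stood at 19.2 to 27.3 and 4.34 to 14.0 TPM. DESeq2 called it lower (adjusted p 0.0218), among 0.509% of all genes called lower, and its edgeR adjusted p was 0.388. Of 5 mesothelial markers, 4 were higher by value. Among them Wt1 stood at 17.0 to 22.8 and 33.8 to 46.9 TPM. DESeq2 called Wt1 higher (adjusted p 0.0160), among 0.998% of all genes called higher, and its edgeR adjusted p was 0.384. Of 6 glial and neuronal markers 3 were lower and 3 higher by value, and of 6 endothelial and lymphatic markers 4 were lower and 2 higher. Mitochondrial genes held 4.11% to 5.95% of counts in wild-type and 3.40% to 4.76% in DdblGata1 libraries. The part of these in the Srf difference was not tested.

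**Figure D1:**
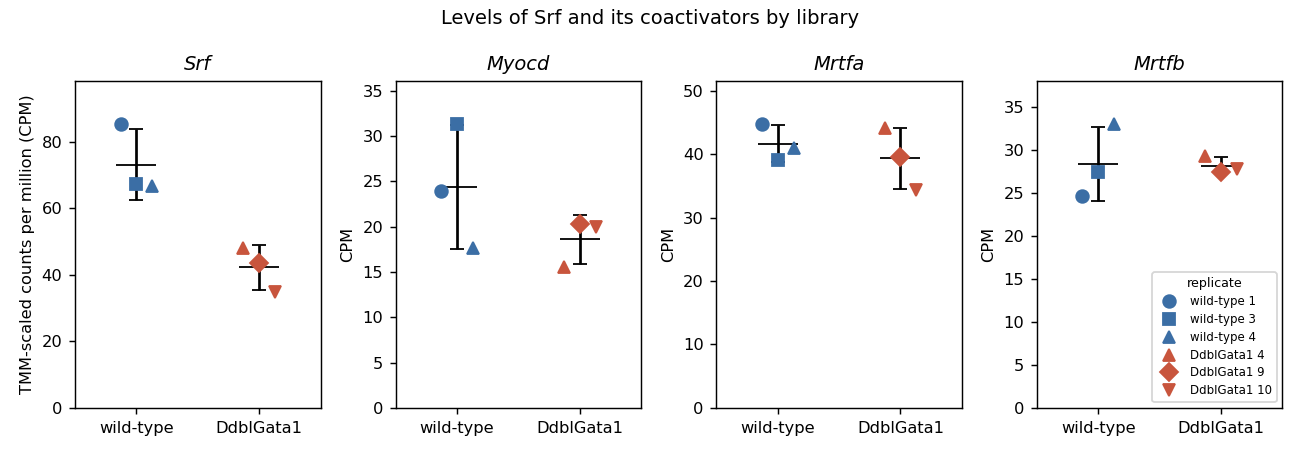
TMM-scaled CPM of Srf, Myocd, Mrtfa and Mrtfb in each library, with the group mean as a bar and SD as error (n = 3 per genotype) and the replicate number by symbol; each axis starts at 0. Srf lies at 66.8 to 85.4 CPM in wild-type and 35.0 to 48.1 in DdblGata1 libraries, and the other 3 genes overlap between genotypes.

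The size of the Srf difference depended on which transcripts were counted. The deposited gene counts are summed TPM times a mean length, brought to the total of each library, so a short transcript with few reads can weigh heavily. Srf has one main coding transcript, Srf-201 (2616 bases, 7 exons), which took 92.7% of the gene's estimated counts but 57.2% of its TPM in the mean over libraries. Srf-203, a retained-intron transcript of 637 bases without a coding frame, took 5.78% of counts and 32.5% of TPM. Srf-204, a retained-intron transcript of 595 bases, took 1.53% of counts and 10.2% of TPM.

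Srf-203 shares with Srf-201 all of its bases except the stretch printed here, the end of the intron that runs into exon 5 of Srf-201, chr17:46550037-46550100 on the minus strand of GRCm38, from GENCODE M21. It is shown because only reads that touch these 64 bases set the transcript apart by sequence.
Srf-203 intronic stretch: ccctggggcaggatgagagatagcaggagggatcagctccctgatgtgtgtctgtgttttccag
Srf-203 had estimated counts of 189, 126 and 142 across wild-type libraries and of 53.8, 45.8 and 66.4 across DdblGata1 ones. As a share of Srf TPM it made up 40.1% ± 8.14 in wild-type and 24.8% ± 6.17 in DdblGata1 libraries (SD, n = 3 each), and as a share of Srf counts 7.26% ± 1.13 and 4.30% ± 1.56. Its deposited effective length, the divisor of TPM, was 274, 380 and 274 bases in the wild-type and 275, 349 and 374 bases in the DdblGata1 libraries. These lengths differed between libraries of 1 genotype, and their ranges overlapped between genotypes.

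The coding transcript Srf-201 differed by less. It had 2191, 1962 and 1611 estimated counts across wild-type libraries and 1376, 1396 and 1002 across DdblGata1 ones. On the TPM scale it stood at 33.8, 32.8 and 27.8 in wild-type against 28.1, 25.7 and 17.1 in DdblGata1 libraries, so that DdblGata1 replicate 4 lay just above wild-type replicate 4. On the TMM-scaled CPM scale the values were 67.2, 68.0 and 55.2 against 52.2, 44.3 and 31.1. There the lowest wild-type value, 55.2, lay just above the highest DdblGata1 value, 52.2. How many of all transcripts separate in this way was not counted.

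An edgeR fit over 39041 single transcripts called 0, and 1852 had an unadjusted p under 0.05. There Srf-201 had a log2 fold change of -0.58 ± 0.22 (SE; edgeR adjusted p 0.996). Srf-203 had -1.43 ± 0.34 (edgeR adjusted p 0.981) and Srf-204 had -0.12 ± 0.53. The unadjusted p was 0.0390 for Srf-201 and 0.00598 for Srf-203. Plain sums of transcript counts, without length scaling, gave Srf a log2 fold change of -0.57 (edgeR adjusted p 0.336). Plain sums of protein-coding transcripts gave -0.52 (0.389), and length-scaled TPM of protein-coding transcripts gave -0.50 (0.476). Srf was thus lower by value on each of these scales, and by less than in the deposited table.

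**Figure D2:**
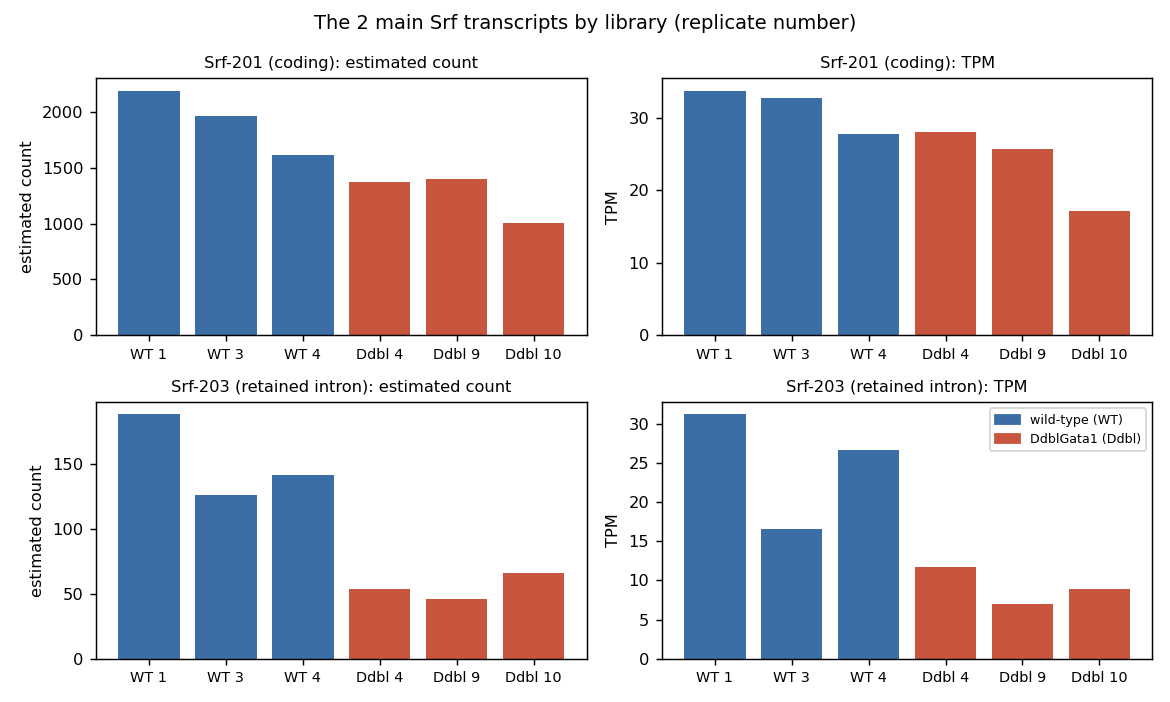
Estimated counts (left) and TPM (right) of the coding transcript Srf-201 (top) and the retained-intron transcript Srf-203 (bottom) in each library, labelled by genotype and replicate number; bars start at 0. Srf-203 holds 45.8 to 189 counts against 1002 to 2191 for Srf-201, but up to 31.2 TPM against at most 33.8.

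Myocd, the coactivator typical of smooth muscle, was lower by value in DdblGata1 libraries, and the genotypes overlapped. Myocd (ENSMUSG00000020542, chr11:65176561-65269989, minus strand) had 24.0, 31.4 and 17.7 CPM across wild-type libraries and 15.5, 20.3 and 20.0 across DdblGata1 ones. Wild-type replicate 4 lay below DdblGata1 replicates 9 and 10. The means were 24.4 ± 6.85 and 18.6 ± 2.67 CPM (SD, n = 3 each), with a log2 fold change of -0.39 ± 0.24 (SE; edgeR adjusted p 0.570) and a DESeq2 adjusted p of 0.560. The value was negative in all 24 alternatives, but it was -0.17 without wild-type replicate 3, the highest library, and -0.57 without wild-type replicate 4, the lowest of that genotype.

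Mrtfa and Mrtfb, the actin-regulated coactivators, were not separated by genotype. Mrtfa (ENSMUSG00000042292, chr15:81012281-81190757, minus strand) had 44.8, 39.1 and 40.9 CPM across wild-type libraries and 44.1, 39.6 and 34.4 across DdblGata1 ones. Its log2 fold change was -0.08 ± 0.15 (SE; edgeR adjusted p 0.856). Mrtfb (ENSMUSG00000009569, chr16:13256481-13417529, plus strand) stood at 24.7, 27.5 and 33.1 CPM without the deletion and 29.3, 27.5 and 27.8 with it. Its log2 fold change was -0.01 ± 0.17 (SE; edgeR adjusted p 0.985). Libraries of both genotypes overlapped for each gene, and the sign of Mrtfb turned in 7 and that of Mrtfa in 2 of 24 alternatives.

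Per length, Srf stood above its coactivators in every library. Srf was at 71.1, 54.1 and 58.3 TPM in wild-type against 43.5, 39.1 and 30.0 in DdblGata1 libraries, all transcripts summed. Mrtfa was at 16.1, 13.6 and 15.5 against 17.2, 15.4 and 12.8 TPM. It was the highest coactivator in 5 of 6 libraries. Myocd was at 11.05, 14.0 and 8.54 against 7.74, 10.0 and 9.49 TPM. Mrtfb, at 4.53, 4.88 and 6.38 against 5.84, 5.43 and 5.27 TPM, was lowest with all transcripts summed. On that scale the order Srf, Mrtfa, Myocd, Mrtfb held in 5 libraries, and in wild-type replicate 3 Myocd stood above Mrtfa. Myocd TPM leaned on a noncoding transcript of 377 bases, Myocd-205, which had 1 to 6 estimated counts per library yet took 17.4% to 40.0% of the gene's TPM. With protein-coding transcripts only, Myocd stood at 6.85, 8.38 and 6.63 against 5.56, 7.59 and 5.91 TPM, and Mrtfa lay above it in all 6 libraries. Myocd and Mrtfb were then close: Mrtfb lay above Myocd in DdblGata1 replicate 4 (5.84 against 5.56 TPM) and below it in the other 5 libraries, by as little as 6.38 against 6.63 TPM in wild-type replicate 4. The order of these neighbours thus depends on which transcripts are counted.

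A difference between the genotypes in the make-up of the coactivators was not detectable beyond the spread of the libraries. Mrtfa made up 47.9% ± 5.16 of the summed coactivator TPM in wild-type and 50.7% ± 4.81 in DdblGata1 libraries (SD, n = 3 each; exact two-sided permutation p = 0.6). Myocd made up 35.3% ± 7.47 and 30.7% ± 4.93 (exact permutation p = 0.4), and Mrtfb 16.8% ± 3.68 and 18.6% ± 0.834 (exact permutation p = 0.4). The Myocd difference of -4.60 percentage points was -0.75 without wild-type replicate 3 and -8.20 without wild-type replicate 4. Adjusted over the 3 shares, each exact permutation p was 0.6, and the smallest p that 3 against 3 libraries allow is 0.1.

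Relative to Srf, the coactivators stood higher in DdblGata1 libraries, where Srf itself was lower. Mean TPM, wild-type first, was 61.2 and 37.5 for Srf and 15.1 and 15.1 for Mrtfa. It was 11.2 and 9.09 for Myocd and 5.26 and 5.51 for Mrtfb. The summed coactivator TPM divided by Srf TPM was 0.446, 0.600 and 0.521 across wild-type libraries and 0.708, 0.789 and 0.918 across DdblGata1 ones. The genotypes did not overlap, and the difference of the log2 ratio was 0.63 (exact two-sided permutation p = 0.1, the smallest possible). With protein-coding transcripts alone the ratios were 0.725, 0.780 and 0.987 in wild-type against 1.02, 0.978 and 1.25 in DdblGata1 libraries. There wild-type replicate 4 lay above DdblGata1 replicate 9, and the difference was 0.38 (exact permutation p = 0.2).

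**Figure D3:**
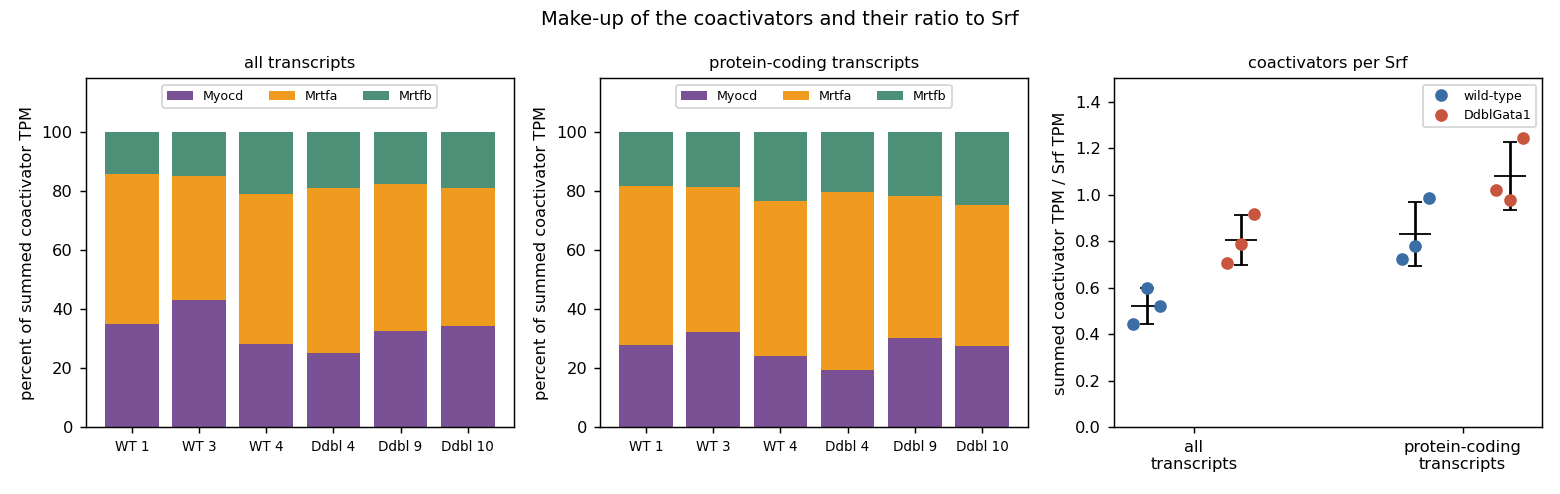
Share of Myocd, Mrtfa and Mrtfb in their summed TPM for each library, and the ratio of summed coactivator TPM to Srf TPM, with all transcripts or protein-coding transcripts only (points are libraries, the black bar is the mean and the error is SD, n = 3). With all transcripts the ratio is 0.446 to 0.600 in wild-type and 0.708 to 0.918 in DdblGata1 libraries, and with protein-coding transcripts the genotypes overlap.

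The coactivator genes each make several coding forms. Myocd-203, with 14 exons, carries exon 11, an in-frame cassette exon of 144 bases (48 codons) that Myocd-202 skips. The exon, chr11:65184488-65184631 on the minus strand of GRCm38, from GENCODE M21, is printed because it is the sequence by which these coding forms differ within their shared reading frame.
Myocd cassette exon: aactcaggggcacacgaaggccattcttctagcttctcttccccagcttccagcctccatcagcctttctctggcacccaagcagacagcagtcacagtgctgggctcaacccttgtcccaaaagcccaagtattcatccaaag
The form with the exon held 65.9%, 99.3% and 90.1% of Myocd estimated counts across wild-type libraries and 99.7%, 81.8% and 99.3% across DdblGata1 ones. It was the main form in every library, and the genotypes overlapped. Myocd-202 was estimated at 189 counts for wild-type replicate 1, 39.4 for wild-type replicate 4 and 113 for DdblGata1 replicate 9, and below 1 in the other 3 libraries.

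Mrtfa coding transcripts begin at an upstream start (chiefly Mrtfa-204 and Mrtfa-209) or at an internal one (chiefly Mrtfa-201). Mrtfa-204 and Mrtfa-209 together held 65.7%, 60.7% and 70.6% of Mrtfa counts in wild-type against 83.6%, 80.9% and 53.9% in DdblGata1 libraries. Mrtfa-203, another coding transcript that begins upstream, held 3.76% in DdblGata1 replicate 9 and next to none in the other 5 libraries, and is not in those shares. Mrtfa-201 held 33.6%, 38.2% and 29.0% against 16.4%, 13.2% and 45.2%. DdblGata1 replicates 4 and 9 had the lowest shares of the internal start and DdblGata1 replicate 10 the highest. In the single-transcript fit Mrtfa-201 had a log2 fold change of -0.70 ± 0.41 (SE; edgeR adjusted p 0.996), and its value without each library in turn ranged from -1.16 to -0.40.

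In Mrtfb the internal start led, with Mrtfb-204 at 95.1%, 89.9% and 91.2% of counts in wild-type against 88.1%, 85.5% and 91.8% in DdblGata1 libraries. The upstream start, Mrtfb-201, held 4.94%, 10.1% and 8.82% against 11.8%, 14.5% and 8.17%. The genotypes overlapped for both starts.

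Transcript usage was tested with diffSpliceDGE of edgeR over 9448 genes, of which 26 (0.275%) were called by the Simes method. The unadjusted p of the 4 genes lay between 0.898 and 0.954, and none of them was called. The voom-based diffSplice of limma called 1 gene (0.0106%) and gave unadjusted p-values of 0.112 for Srf, 0.210 for Mrtfb, 0.500 for Mrtfa and 0.556 for Myocd. With 1 library left out, the lowest unadjusted diffSpliceDGE p were 0.0196 for Mrtfa without DdblGata1 replicate 4 (adjusted p 0.380) and 0.0736 for Myocd without DdblGata1 replicate 9. The other values of the 4 genes in those fits were at least 0.693. A difference in the use of their transcripts was thus not detectable with these libraries. Both tests recovered few of the changes put into simulated data, so the lack of a call does not show like usage.

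**Figure D4:**
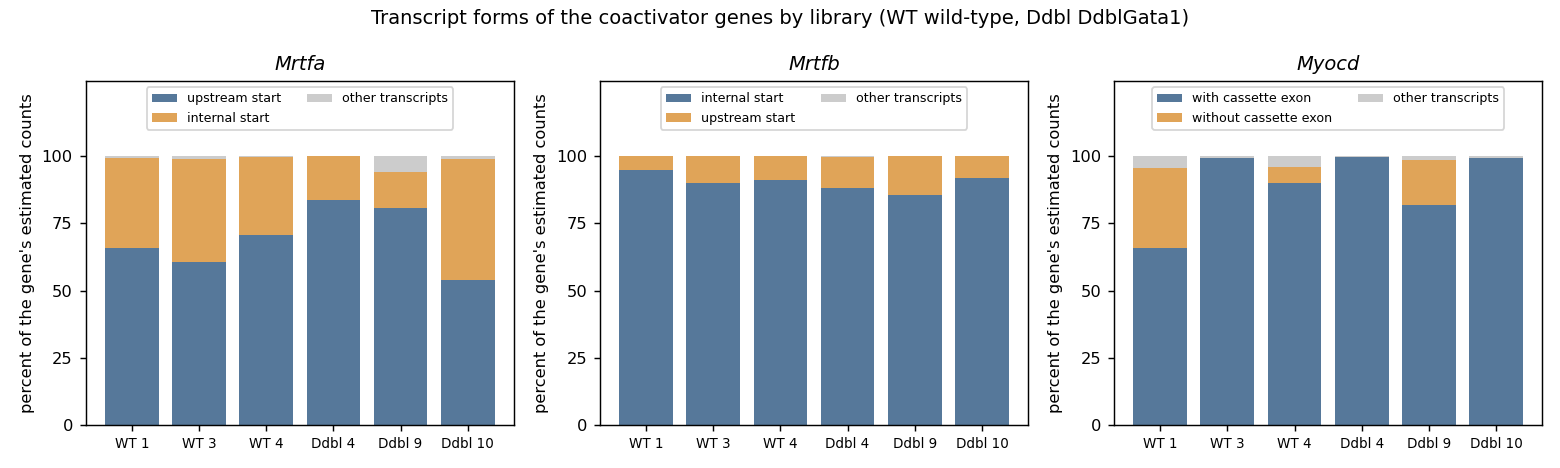
Share of each coactivator gene's estimated counts held by its named coding forms in each library, with the remaining transcripts, among them Mrtfa-203, in grey. The Myocd form with the cassette exon ranges from 65.9% to 99.7%, the internal start of Mrtfa from 13.2% to 45.2% and that of Mrtfb from 85.5% to 95.1%, with both genotypes in each range.

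Genes downstream of SRF are described by class. Counts and medians of lists are given beside the same over all genes, whose median log2 fold change was -0.01 with 50.7% below 0, and they are descriptions, since the lists were chosen with earlier results of these data known. In the contractile list of smooth muscle, all 18 measured genes were lower by value in DdblGata1 libraries, with a median of -0.62. Of these, 9 had an unadjusted edgeR p under 0.05 (50%, against 4.23% of all genes lower). DESeq2 called 2 lower, among 0.509% of all genes called lower.

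The contractile genes with the smallest p were Des, Synm, Csrp1 and Acta2. Des, the intermediate filament protein desmin, ranged from 654 to 983 CPM in wild-type and from 444 to 587 in DdblGata1 libraries (log2 fold change -0.77 ± 0.21, SE; DESeq2 adjusted p 0.0297). Synm, synemin, which joins desmin filaments, ranged from 285 to 416 and from 171 to 261 CPM (-0.79 ± 0.22; DESeq2 adjusted p 0.0433). For both genes the genotypes did not overlap, as with 7.34% of all genes in the lower direction. Csrp1, a LIM protein of the cytoskeleton, had -0.66 ± 0.19 without overlap (DESeq2 adjusted p 0.0562). Acta2, smooth muscle actin, had 3711 ± 1017 and 2135 ± 438 CPM (SD, n = 3 each; -0.80 ± 0.26, SE) with overlapping genotypes (DESeq2 adjusted p 0.0774).

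The mean log2 CPM of the contractile list was 9.49, 9.46 and 8.91 across wild-type libraries and 8.39, 8.97 and 8.74 across DdblGata1 ones. Wild-type replicate 4 lay below DdblGata1 replicate 9. Of the list, 6 genes are also mature smooth muscle markers, and without them the median of the other 12 was -0.58. Since 6 of the 7 smooth muscle markers given above belong to this list, their level is not a separate observation. The levels of pericyte and interstitial cell of Cajal markers given above moved with this list. The part of these marker lists in it was not tested. A promoter window was found for 15 of the 18 genes. The window of Myl9 alone held a CArG box (6.67%, beside 1.81% of all genes with a window). Boxes with other letters or outside the window were not searched for.

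Actin and adhesion genes, known targets of SRF with the MRTFs, were lower by less. Of 22, 19 were lower and 3 higher by value, with a median of -0.28, and 6 lower (27.3%, against 4.23% of all genes) and 1 higher (4.55%, against 6.03%) had an unadjusted edgeR p under 0.05. Without DdblGata1 replicate 4 the median was -0.45. DESeq2 called Actn1 and Flna lower, among 0.509% of all genes called lower. Actn1, the actin crosslinker alpha-actinin, ranged from 318 to 350 CPM in wild-type and from 196 to 242 in DdblGata1 libraries (-0.58 ± 0.15, SE; DESeq2 adjusted p 0.0269). Flna, filamin A, another actin crosslinker, ranged from 2959 to 5520 and from 1926 to 2489 CPM (-0.86 ± 0.26; DESeq2 adjusted p 0.0433). Both were without overlap, as were Tgfb1i1, an adhesion protein also known as Hic-5, at -0.50 ± 0.16, and Fhl2, a LIM protein that binds SRF, at -0.38 ± 0.13. The same held for 7.34% of all genes in the lower direction.

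In this list 7 of 19 genes with a promoter window (36.8%) held a CArG box, beside 1.81% of all 27025 genes with a window. They were Actg1, Vcl, Fhl1, Fhl2, Cnn2, Filip1l and Lima1. Among these 7, Lima1 was higher by value and 6 were lower. A box outside the window of 300 bases was not searched for.

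Immediate early genes, targets of SRF with the ternary complex factors, stood the other way. Of 12, 11 were higher by value in DdblGata1 libraries, with a median of 0.50, and 7 higher and 0 lower had an unadjusted edgeR p under 0.05 (58.3%, against 6.03% of all genes higher). Without DdblGata1 replicate 9 the median was 0.31. Egr1, a zinc finger transcription factor, ranged from 1519 to 1712 CPM in wild-type and from 2201 to 2586 in DdblGata1 libraries (0.57 ± 0.17, SE). DESeq2 called it higher (adjusted p 0.0162, among 0.998% of genes called higher). Fos, a subunit of AP-1, ranged from 1334 to 1423 and from 1692 to 2071 CPM (0.50 ± 0.17; DESeq2 adjusted p 0.0711). Ier2 had 0.50 ± 0.15 and Junb, another AP-1 subunit, 0.47 ± 0.16, and for all 4 genes the genotypes did not overlap, as with 8.98% of all genes in the higher direction. A promoter window was found for 9 of the 12 genes. Those of Egr2 (log2 fold change 0.57) and Dusp5 (-0.26) held a CArG box (22.2%, beside 1.81% of all genes with a window).

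Genes of tissue dissociation stress, which are induced by digestion at warm temperature, were mostly higher by value too. The 7 stress genes summed to 1144 to 1727 TPM in wild-type and 1712 to 2515 in DdblGata1 libraries, ranges that overlap. Of the 7, 6 were higher by value, with a median of 0.43. Zfp36 (0.97), Atf3 (0.75) and Jun (0.50) had an unadjusted edgeR p under 0.05 (42.9%, against 6.03% of all genes higher). DESeq2 called Zfp36 higher (adjusted p 0.00184), among 0.998% of all genes called higher, and its edgeR adjusted p was 0.384. Zfp36 ranged from 358 to 415 CPM in wild-type and from 584 to 914 in DdblGata1 libraries. Zfp36 and Jun were without overlap, as with 8.98% of all genes in the higher direction, and Atf3 overlapped. Of the heat shock genes, Hspa1a (-0.03) and Hspa1b (0.14) differed little. Hsp90aa1 (0.34) and Dnajb1 (0.43) were higher by value. The part of the stress genes in the immediate early result was not tested.

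The ternary complex factors themselves differed little by value. Elk4 had 0.17 ± 0.13, Elk3 0.03 ± 0.14 and Elk1 0.02 ± 0.15 (log2 fold change, SE), none with an unadjusted edgeR p under 0.05. Of the 3, Elk4 was without overlap between the genotypes, at 38.4 to 40.1 CPM in wild-type and 41.4 to 46.1 in DdblGata1 libraries. The same held for 8.98% of all genes in the higher direction, and its unadjusted edgeR p was 0.224.

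Among partners and antagonists of myocardin, 16 of 23 were higher and 7 lower by value, with a median of 0.13, and 6 higher (26.1%, against 6.03% of all genes) and 2 lower (8.70%, against 4.23%) had an unadjusted edgeR p under 0.05. Leaving out DdblGata1 replicate 4 brought the median to 0.052, and leaving out wild-type replicate 1 brought it to 0.053. Prrx1, a homeobox factor of mesenchyme, ranged from 47.0 to 99.5 CPM in wild-type and from 140 to 179 in DdblGata1 libraries (1.01 ± 0.27, SE; DESeq2 adjusted p 0.0382). Gata6, a zinc finger factor of smooth muscle and gut, ranged from 33.5 to 38.7 and from 49.1 to 58.4 CPM (0.59 ± 0.14; DESeq2 adjusted p 0.0456). Tcf21, a factor of fibroblast precursors reported to oppose the myocardin and SRF pair, ranged from 130 to 183 and from 64.3 to 110 CPM (-0.85 ± 0.22; DESeq2 adjusted p 0.0396). Smad3, which carries TGF-beta signals, had 0.51 ± 0.13 (DESeq2 adjusted p 0.0600). The genotypes did not overlap for any of the 4, as with 8.98% of all genes in the higher and 7.34% in the lower direction. DESeq2 called Prrx1 and Gata6 higher, among 0.998% of all genes called higher, and Tcf21 lower, among 0.509% called lower.

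DESeq2 thus called 8 genes of the pathway lists described here, which hold 18, 22, 12, 3 and 23 genes. Over all genes it called 216 of 14334 (1.51%) in either direction. By edgeR, 0 of the 8 were called, as with 0 of all genes. Each of these 8 calls was lost in at least 3 of the 6 DESeq2 fits that left out 1 library. All 8 were lost without DdblGata1 replicate 10. Des kept its call in 3 of 6, with adjusted p up to 0.264, and Prrx1 in 3 of 6, with adjusted p up to 0.378. Synm, Flna, Egr1 and Tcf21 kept theirs in 2 of 6, and Actn1 and Gata6 in 1 of 6.

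**Figure D5:**
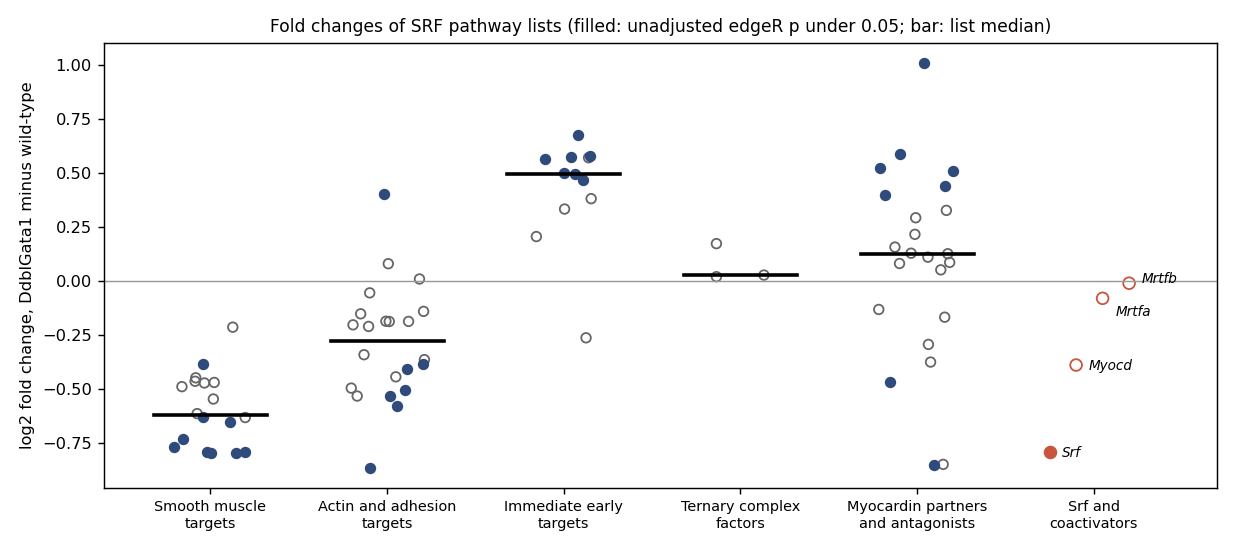
Log2 fold change, DdblGata1 minus wild-type, of each gene in 5 pathway lists and of Srf and its coactivators; a filled point has an unadjusted edgeR p under 0.05 and the bar is the list median. Contractile genes all lie below 0 with a median of -0.62, immediate early genes lie above 0 except 1 with a median of 0.50, and Srf lies at -0.79.

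Over the 6 libraries, the genes whose log2 CPM followed Srf most closely, among 10105 genes with a mean of at least 3, were Abcb8 (Pearson r = 0.994), Tmem258 (0.993) and Ppia (0.993). For Myocd they were Ip6k2 (0.991), Ngdn (0.986) and Rpl18 (0.975). For Mrtfa they were Rnf126 (0.998), Kat2a (0.996) and Tcf25 (0.993), and for Mrtfb Api5 (0.985), Usp20 (0.983) and Lrrc58 (0.979). These are the highest of 10105 values over only 6 points that share their libraries, and are given as a description. Between the members themselves, r was 0.68 for Srf with Mrtfa, 0.43 for Srf with Myocd, -0.16 for Srf with Mrtfb, -0.16 for Myocd with Mrtfa, -0.55 for Myocd with Mrtfb and -0.11 for Mrtfa with Mrtfb.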

How the data were processed

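Per the labels, total RNA of sorted cells was made into stranded libraries. Per the submitters' processing notes, the tools were kallisto, DESeq2, bcl2fastq 2.2 and R 4.2.2 and the builds GRCm38.p6 and mm10. Their roles are not given in the sources used here. As deposited, the gene table holds expected (estimated) counts rounded to whole numbers, with at least 10 in at least 3 libraries for each gene. The deposited sample files hold expected counts, TPM and other values, effective lengths in bases, of 115270 transcripts, of which GENCODE mouse M21 placed 113492. Of the gene table's values, 99.7% equalled length-scaled TPM within 1% plus 1 count, and 26.2% equalled plain sums of transcript counts. The deposited sample sheet holds a size factor per library, a ratio, and 2 surrogate variables, a score of unstated method.

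The members and gene lists were chosen with earlier results of these data known. All 4 members are described; from each pathway list up to 4 genes with the smallest edgeR p are named, for each member the 3 genes of highest correlation of log2 CPM (prior count 2), and transcripts with at least 5% of a gene's TPM. Actg1, Vcl, Fhl1, Cnn2, Filip1l, Lima1, Myl9, Egr2 and Dusp5 are named beyond this rule for their promoter letters. Lyz2, Cd3e, Cacna1h, Wt1, Col1a1, Col1a2 and the stress genes are named after their values were seen. The result of 1 pathway list is not reported here.

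The design had assumed counts; since the files hold expected counts, these were rounded and tested with edgeR 4.0.16 in R 4.3.3 (TMM, filterByExpr, robust quasi-likelihood, adjusted p under 0.05), without covariates, since the labels name no batch. DESeq2 1.42.0 was an alternative, and its undefined adjusted p-values were left undefined (14334 of 15238 defined). Other alternatives were RLE and upper quartile scaling, other filters, limma-voom (limma 3.58.1), log2(TPM + 1) and log2(TPM + 0.1), the surrogate variables, plain transcript sums and leaving out each library. Protein-coding sums, single-transcript fits, limma's diffSplice, DESeq2 without each library and the contractile list without shared markers were added after the data were seen. Transcript usage was tested with diffSpliceDGE, shares and ratios by exact permutation. The tests were checked on simulated data, on which both usage tests recovered few of the changes put in, and edgeR, DESeq2, diffSpliceDGE and diffSplice also made calls among genes left unchanged, DESeq2 more than edgeR and diffSpliceDGE more than diffSplice.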

Additional observations from a re-analysis of the deposited data

How the results depend on the processing

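No paired analysis was possible because the genotypes share a single replicate number, 4. Genes called numbered 0 by edgeR and 216 by DESeq2, and without each library in turn 0 to 1 by edgeR and 43 to 1023 by DESeq2 (107, 242 and 140 without wild-type replicates 1, 3 and 4, and 1023, 81 and 43 without DdblGata1 replicates 4, 9 and 10). List members called were 8 by DESeq2. Genes with a called transcript usage were 47 by the gene F test, 0 with transcripts of at least 10% of the gene, 1 by limma, and 2 to 71 without each library (2 without DdblGata1 replicate 9, 71 without DdblGata1 replicate 4). The log2 fold change of Mrtfb turned to 0.00040 with limma-voom, 0.068 with log2(TPM + 1), 0.081 with log2(TPM + 0.1), 0.0015 with length-scaled protein-coding TPM and 0.0033 by DESeq2 without DdblGata1 replicate 9, and to 0.11 without wild-type replicate 4 by edgeR and by DESeq2. Its edgeR values without each library ranged from -0.12 to 0.11. That of Mrtfa turned to 0.029 with the surrogate variables and 0.00050 by DESeq2 without DdblGata1 replicate 10. Without each library in turn, the share difference ranged from -0.18 (without wild-type replicate 3) to 4.94 percentage points for Mrtfa, -8.20 to -0.75 for Myocd and 0.57 to 3.92 for Mrtfb. Over the same fits the list medians ranged from -0.81 to -0.42 for contractile genes, 0.052 to 0.20 for partners and antagonists, -0.45 to -0.22 for actin and adhesion genes, 0.31 to 0.57 for immediate early genes and -0.030 to 0.10 for ternary complex factors. The cause of these shifts was not tested. The 3 libraries per genotype and the low counts of short transcripts limit the precision of the values above.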
